A study of Homo sapiens with 6 samples.

Results

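NFIB, ZFHX4 and MITF are 3 transcription factor genes that had lower values in HK2 cells carrying an shRNA against PGC-1alpha than in HK2 cells carrying an shRNA against GFP. They were chosen on their log2 values in this same comparison, out of the 14884 genes named on the arrays, so their own differences are given as descriptions without a test. Each gene had 1 named probe set: 17092490 for NFIB on chromosome 9, 17070177 for ZFHX4 on chromosome 8 and 16942576 for MITF on chromosome 3. HK2 is an immortalised human line with features of the proximal tubule, the kidney segment that reabsorbs most filtered solute. Lentivirus delivered pLKO.1 vectors that encode shPGC-1alpha or, as the control, shGFP, which targets a protein that human cells do not make. Both groups went through transduction and puromycin selection, and RNA was collected on day 5, with 24 hours having passed since puromycin was withdrawn. The 3 shPGC-1alpha arrays and 3 shGFP arrays are numbered as biological replicates 1 to 3. The labels name 1 shRNA for each group and do not say whether cultures were transduced separately, so a p-value here covers only the spread among these 6 samples, part of which may be technical.

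NFIB is a member of the nuclear factor I family, whose proteins bind DNA as dimers and are known for their parts in lung, brain and skin stem cell development. ZFHX4 encodes a very large protein with many zinc fingers and several homeodomains, studied mostly in neural and muscle development. MITF is the master regulator of pigment cells and belongs with TFE3, TFEB and TFEC to the MiT/TFE family, which binds E-box letters as homodimers or heterodimers and switches on lysosome genes in many cell types. Outside melanocytes MITF is made from other promoters as longer isoforms. PGC-1alpha is itself known as a MITF target in melanoma cells, and it coactivates nuclear receptors and other factors on genes of mitochondrial metabolism.

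The arrays separated by shRNA over the named genes. Along the first principal component, with 62.2% of the variance, the shPGC-1alpha arrays lay between -20.3 and -19.0 and the shGFP arrays between 18.6 and 20.9. On the second component, with 12.2%, shGFP replicate 1 lay at 14.1, against -6.37 and -8.62 for the other shGFP arrays. The gene of PGC-1alpha itself was not analysed here, so the labels were not checked against the level of the shRNA's target. Of 10 proximal tubule markers 5 were measured. ANPEP, AQP1 and MME had means above 4.43, the 20th percentile of the named genes, which serves as a guide to dim signal, and the endocytic receptors LRP2 and CUBN, which define the segment, lay below it in both groups. Of 5 measured pigment cell markers, SOX10 and PMEL were above the guide and TYR, TYRP1 and MLANA were below it in their mean over all 6 arrays, TYR narrowly so, with means of 4.26 in shPGC-1alpha cells and 4.44 in shGFP cells. The summed log2 value of those 5 ran from 22.4 to 23.3 in shPGC-1alpha cells and from 22.9 to 23.1 in shGFP cells.

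NFIB had log2 values of 5.90, 5.75 and 5.83 in the 3 shPGC-1alpha arrays, against 7.77, 7.68 and 7.82 in the 3 shGFP arrays. The groups were far apart, with 1.78 log2 units between the highest shPGC-1alpha array and the lowest shGFP array. The means were 5.83 ± 0.08 in shPGC-1alpha cells and 7.75 ± 0.07 in shGFP cells (SD, n = 3 each), which is a log2 difference of -1.93 (SE 0.07), a level 3.80-fold lower. NFIB was the most even of the 3 genes across arrays: with any 1 array left out the log2 difference lay between -1.96 and -1.89.

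ZFHX4 had log2 values of 6.64, 6.59 and 6.55 in shPGC-1alpha cells, against 8.64, 8.28 and 8.22 in shGFP cells. The shPGC-1alpha arrays lay within 0.09 of each other and the shGFP arrays within 0.41, the highest being shGFP replicate 1. The means were 6.59 ± 0.05 in shPGC-1alpha cells and 8.38 ± 0.22 in shGFP cells (SD, n = 3 each), which is a log2 difference of -1.79 (SE 0.11), a level 3.45-fold lower. Without shGFP replicate 1 the log2 difference of ZFHX4 was -1.66.

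MITF had log2 values of 6.89, 6.92 and 6.74 in shPGC-1alpha cells, against 8.23, 8.01 and 7.99 in shGFP cells. Here too shGFP replicate 1 was the highest array, and the groups were 1.06 log2 units apart at their closest. The means were 6.85 ± 0.10 in shPGC-1alpha cells and 8.07 ± 0.14 in shGFP cells (SD, n = 3 each), which is a log2 difference of -1.22 (SE 0.09), a level 2.33-fold lower. Without shGFP replicate 1 the log2 difference of MITF was -1.14. In bulk RNA, fewer cells that express a gene and less RNA of it per cell cannot be told apart.

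The groups did not overlap for any of the 3 genes, and over all genes 21.5% had shPGC-1alpha arrays that lay wholly below the shGFP arrays. This contrast chose the genes, so nothing is read from that count. Among all 14884 genes ordered by the log2 difference, from the largest decrease upward, NFIB stood at place 8, ZFHX4 at 10 and MITF at 47. The log2 difference of MITF was 0.70 smaller in size than that of NFIB and 0.56 smaller than that of ZFHX4, and NFIB and ZFHX4 were 0.14 apart.

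**Figure D1:**
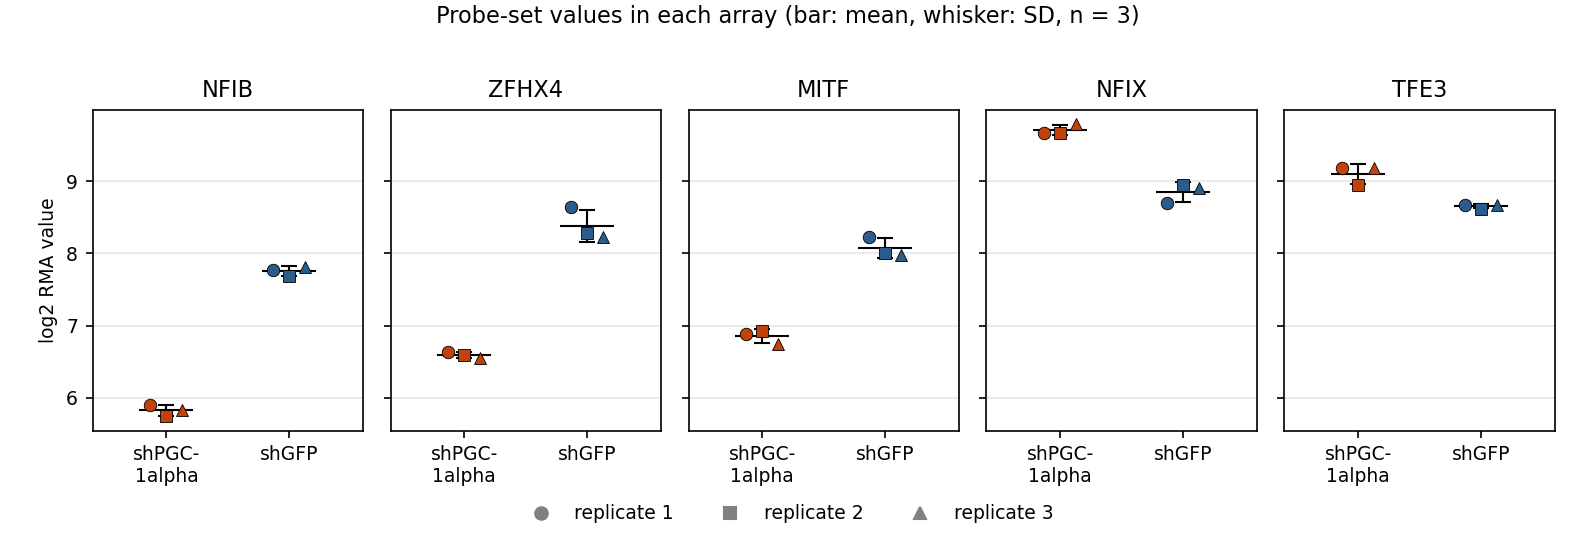
Log2 RMA values of NFIB, ZFHX4 and MITF and of their relatives NFIX and TFE3 in each array, with shPGC-1alpha left of shGFP. Points are arrays, shaped by replicate number, bars are group means and whiskers the SD of 3 arrays. NFIB, ZFHX4 and MITF are lower and NFIX and TFE3 higher in all shPGC-1alpha arrays, and levels are not comparable between genes.

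MITF and NFIB each start from several promoters, and RefSeq gives windows from 250 bases before to 50 bases after a start, 3 for MITF and 10 for NFIB in GRCh38.p14. A single probe set does not tell which start was used. The window below of the MITF promoter that pigment cells use, on the plus strand at chr3:69936342-69936641, holds TGACGTCA, the cyclic AMP response element through which MITF is induced in melanocytes. The other MITF window shown, plus strand at chr3:69763561-69763860, has the most matches of the MITF windows, and the NFIB window, minus strand at chr9:14306796-14307095, has the most of the NFIB windows. Capitals mark matches on either strand to CACGTG (the E-box and CLEAR core), CATGTG (the core of the M-box that MITF binds), TGACGTCA, TTGGC (the core bound by each NFI monomer), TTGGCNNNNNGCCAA (the NFI dimer site), TCAAGGTCA (the site of the estrogen-related receptors, partners of PGC-1alpha) and AGGTCA (the nuclear receptor core, which the previous motif contains).
MITF, pigment cell start: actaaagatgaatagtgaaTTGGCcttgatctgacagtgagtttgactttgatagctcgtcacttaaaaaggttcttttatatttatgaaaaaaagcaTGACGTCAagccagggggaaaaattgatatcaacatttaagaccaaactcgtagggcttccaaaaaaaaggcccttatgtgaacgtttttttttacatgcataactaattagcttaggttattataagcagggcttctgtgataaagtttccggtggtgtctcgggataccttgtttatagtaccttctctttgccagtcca
MITF, upstream start: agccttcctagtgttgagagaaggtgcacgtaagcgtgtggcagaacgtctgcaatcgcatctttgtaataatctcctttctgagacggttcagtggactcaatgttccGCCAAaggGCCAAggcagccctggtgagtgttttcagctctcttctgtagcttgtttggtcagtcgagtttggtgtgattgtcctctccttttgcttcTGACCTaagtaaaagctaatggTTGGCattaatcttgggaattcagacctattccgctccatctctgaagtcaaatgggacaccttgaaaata
NFIB: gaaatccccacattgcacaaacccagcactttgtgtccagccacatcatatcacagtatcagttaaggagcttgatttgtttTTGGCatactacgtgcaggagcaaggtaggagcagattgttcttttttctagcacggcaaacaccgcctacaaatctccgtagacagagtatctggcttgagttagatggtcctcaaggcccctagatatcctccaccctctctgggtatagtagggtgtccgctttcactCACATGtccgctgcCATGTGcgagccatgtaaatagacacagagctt
The upstream MITF window holds TTGGC in 3 places and AGGTCA in 1, and the NFIB window holds CATGTG in 2 places and TTGGC in 1. Over all 35116 RefSeq windows of the same length, TTGGC occurred in 45.6%, CATGTG in 11.1%, AGGTCA in 13.8% and TGACGTCA in 1.85%. The remaining motifs occurred in 7.26% (CACGTG), 0.353% (TCAAGGTCA) and 0.0285% (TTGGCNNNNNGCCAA) of windows and in 0 of the 3 printed. These matches are letters in a window and were not tested as sites. The upstream MITF window and the NFIB window were printed for having the most matches, so nothing is read against the shares over all windows. The MITF window at chr3:69739214-69739513 has 0 matches, as do the NFIB windows at chr9:14314905-14315204 and chr9:14307986-14308285.

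The 3 genes also share a long annotated span. RefSeq gives NFIB 450 kb, ZFHX4 186 kb and MITF 229 kb, longer than 97.9%, 91.8% and 93.8% of the 11916 named protein-coding genes, whose median was 26.7 kb. Of the other 1279 protein-coding genes of 150 kb or more, 15.7% were called lower and 13.2% higher in limma. Of all 11913 other protein-coding genes, 13.5% were lower and 11.1% higher. The longest genes did not have the largest share called lower, but their median log2 difference, -0.0304, was the lowest of the groups by length. Over all other protein-coding genes that median was -0.0139. With genes grouped by length, 17.9% were lower and 13.5% higher of the 831 in the next shorter group. In the group below that, with 3440 genes, 16.2% were lower and 13% higher. The group after it, with 3382 genes, had 13.3% lower and 10.6% higher. The smallest shares, 8.52% lower and 7.68% higher, were in the group of the 2981 shortest genes. The part of gene length in the lower values of NFIB, ZFHX4 and MITF was not tested.

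The relatives of each factor were set beside it. In the NFI family NFIB was lower and NFIX rose. NFIX had log2 values of 9.66, 9.67 and 9.79 in shPGC-1alpha cells, against 8.70, 8.95 and 8.91 in shGFP cells. All shPGC-1alpha arrays were above all shGFP arrays, with a log2 difference of 0.86 (SE 0.09) or 1.81-fold and a limma adjusted p of 0.000681. NFIC, with means of 10.03 in shPGC-1alpha cells and 10.14 in shGFP cells, did not pass (log2 difference -0.11, SE 0.06, adjusted p 0.292). NFIA, with means of 4.25 in shPGC-1alpha cells and 4.19 in shGFP cells, was below the guide to dim signal and did not pass either (log2 difference 0.06, SE 0.13, adjusted p 0.811). So 1 of the 3 relatives of NFIB rose and 0 fell, also at an unadjusted p of 0.05 in limma. Over all genes 21.8% were called in either direction, 9.58% higher and 12.2% lower. That is 1426 higher and 1817 lower, and the balance turned to 1867 higher and 1440 lower when each array was centred on its median. The shares over all genes include dim ones. With genes below the guide left out, a larger share was called in each direction.

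In the MiT/TFE family MITF was lower and TFE3, which is made in most tissues and binds the same letters, rose. TFE3 had log2 values of 9.18, 8.94 and 9.18 in shPGC-1alpha cells, against 8.67, 8.62 and 8.66 in shGFP cells. The groups did not overlap, and the log2 difference was 0.45 (SE 0.08) or 1.37-fold with a limma adjusted p of 0.00818. TFEB, the regulator of lysosome formation, had log2 values of 5.66, 5.45 and 5.07 in shPGC-1alpha cells, against 5.21, 5.33 and 5.49 in shGFP cells, and the arrays of the groups were mixed (log2 difference 0.05, SE 0.15, adjusted p 0.861). TFEC, known mainly from macrophages, was dim in both groups, with means of 2.34 in shPGC-1alpha cells and 2.26 in shGFP cells (log2 difference 0.09, SE 0.11, adjusted p 0.644). Of the 3 relatives of MITF 1 rose and 0 fell, likewise at an unadjusted p of 0.05 in limma. Over all genes 9.58% rose and 12.2% fell at the adjusted threshold.

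The measured relatives of ZFHX4 went both ways. Of 8, 2 rose and 2 fell, 25% each way, where over all genes 9.58% rose and 12.2% fell. Their median log2 difference was 0.06, beside -0.02 over all genes. ZEB2, a zinc finger homeobox repressor known for its part in the epithelial to mesenchymal transition and in melanocyte development, had log2 values of 7.90, 7.89 and 7.77 in shPGC-1alpha cells, against 6.54, 6.47 and 6.54 in shGFP cells. Its log2 difference was 1.34 (SE 0.07) or 2.53-fold, with an adjusted p of 5.1e-05. ADNP, a homeodomain protein of chromatin, fell by 0.45 (SE 0.07, adjusted p 0.00446), with means of 9.49 in shPGC-1alpha cells and 9.94 in shGFP cells.

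The relatives closest to ZFHX4 by name are ZFHX2 and ZFHX3. ZFHX2 had means of 5.82 ± 0.11 in shPGC-1alpha cells and 6.09 ± 0.08 in shGFP cells (SD, n = 3 each), a log2 difference of -0.28 (SE 0.08, adjusted p 0.0494). The call of ZFHX2 was lost without any 1 of the 6 arrays (adjusted p 0.0591 to 0.145). ZFHX3 did not pass (log2 difference -0.05, SE 0.10), with means of 7.96 in shPGC-1alpha cells and 8.01 in shGFP cells. ZHX2, a repressor with zinc fingers and homeodomains, was the other gene that rose, at 0.28 (SE 0.06, adjusted p 0.0194). The call of ZHX2 was lost when any array but shGFP replicate 1 was left out (adjusted p 0.0515 to 0.0731). ZHX3, at 0.20, ADNP2, at -0.22, and ZEB1, at 0.16, did not pass, and ZHX1 was not analysed here.

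**Figure D2:**
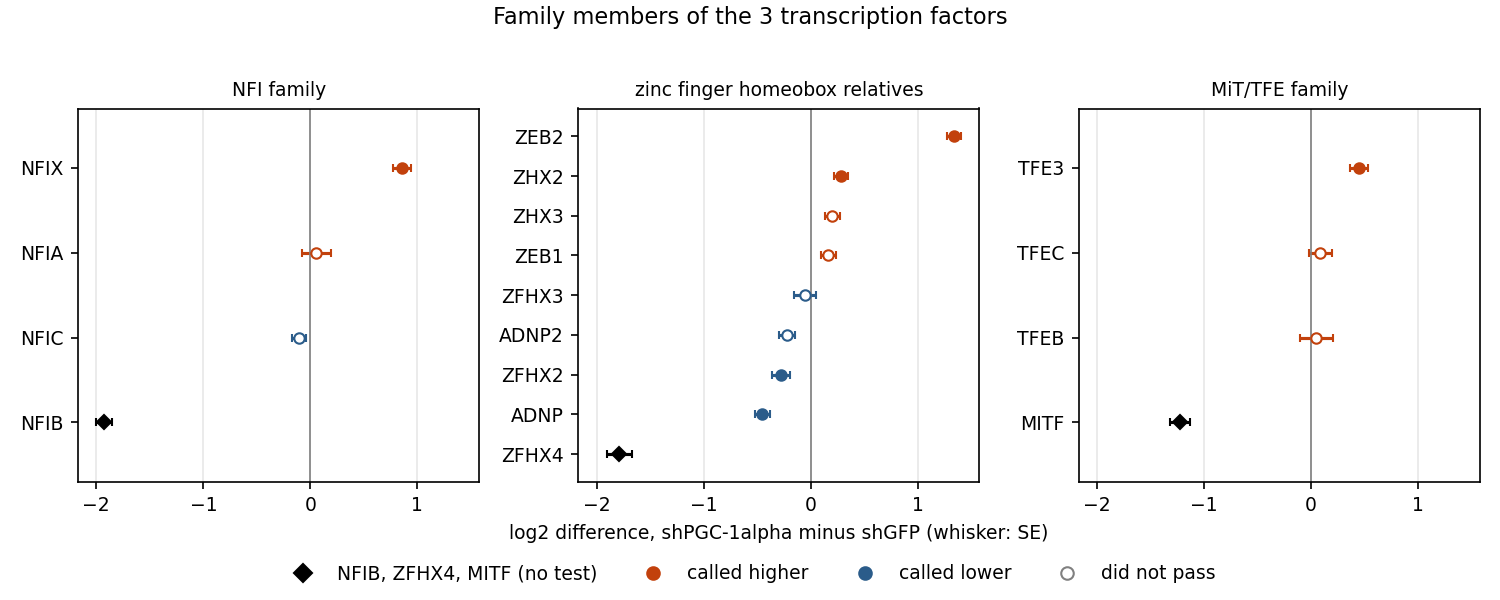
Log2 difference (shPGC-1alpha minus shGFP) of every measured member of the NFI, zinc finger homeobox and MiT/TFE lists, with the SE as whisker. Black diamonds are NFIB, ZFHX4 and MITF, which were not tested. NFIX, ZEB2 and TFE3 stand on the opposite side of 0 from the listed factor in each panel.

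Genes reported downstream of MITF were read next, in separate lists. Of 8 measured genes that MITF switches on in pigment cells, 0 passed in limma at the adjusted threshold of 0.05 in either direction. Over all genes 21.8% did. At an unadjusted p of 0.05 in limma, 1 of the 8 was higher and 2 were lower. PMEL, a protein of melanosome fibres, had a log2 difference of 0.25 (SE 0.08, adjusted p 0.0788), and GPR143, a receptor of pigment granules, a log2 difference of -0.26 (SE 0.09, adjusted p 0.0797). The list's median log2 difference was -0.07. PMEL passed as higher after a second quantile normalisation and after median centring, and GPR143 passed as lower when limma's variance was fitted with a trend and robustly. MC1R, the melanocortin receptor, passed as lower without shPGC-1alpha replicate 2 and with the replicate block, so that 1 gene was called in each of these settings.

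Of 13 measured survival, cell cycle and other genes reported as MITF targets, 7 fell (53.8%) and 3 rose (23.1%). Over all genes 12.2% were lower and 9.58% higher. The median log2 difference of the list was -0.26. BIRC7, an inhibitor of apoptosis first described in melanoma, had log2 values of 5.82, 5.82 and 5.88 in shPGC-1alpha cells, against 6.59, 6.49 and 6.48 in shGFP cells. These do not overlap, and the log2 difference was -0.68 (SE 0.06, adjusted p 0.000531). The cyclin-dependent kinase CDK4 fell by 0.44 (SE 0.06, adjusted p 0.00195) to a mean of 10.29 in shPGC-1alpha cells, against 10.74 in shGFP cells. The desaturase SCD fell by 0.44 (SE 0.07, adjusted p 0.00395), but its call was lost with the probe set of the lowest mean (log2 difference -0.20, adjusted p 0.214).

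The other genes of this list that fell were the receptor tyrosine kinase MET, at -0.39, the formin DIAPH1, at -0.34, the survival gene BCL2, at -0.32, and the kinase CDK2, at -0.26. The 3 that rose were cyclin D1 (CCND1), at 0.64, the survival gene BCL2A1, at 0.52, and the cell cycle inhibitor CDKN2A, at 0.23. BCL2A1 was dim, with means of 4.53 in shPGC-1alpha cells and 4.01 in shGFP cells, and 2 genes rose when genes below the guide were left out. The count that rose was 1 without shPGC-1alpha replicate 1 or 3 or shGFP replicate 1 or 3, 2 without either remaining array, and 1 with the replicate number as a block. ASAH1, TBX2 and CTSK did not pass, at 0.16, 0.09 and 0.14.

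Lysosome and autophagy genes with the CLEAR element, the target letters of the MiT/TFE family, were next. Of 23 measured, 10 rose (43.5%) and 2 fell (8.7%), beside 9.58% and 12.2% over all genes. The median log2 difference of the list was 0.20. CTSS, the cysteine protease cathepsin S, had log2 values of 9.13, 9.06 and 9.04 in shPGC-1alpha cells, against 7.30, 7.49 and 7.30 in shGFP cells, a log2 difference of 1.72 (SE 0.08) or 3.28-fold with an adjusted p of 3.8e-05. It was the largest change of the list. Cathepsin B (CTSB) rose by 0.59 (SE 0.06, adjusted p 0.000761), and cathepsin F (CTSF) fell by 0.63 (SE 0.06, adjusted p 0.000578).

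The lysosomal calcium channel MCOLN1 had means of 8.29 ± 0.26 in shPGC-1alpha cells and 7.55 ± 0.11 in shGFP cells (SD, n = 3 each), a log2 difference of 0.74 (SE 0.13, adjusted p 0.0072). The other genes that rose were the heparan sulfatase SGSH, at 0.64, the autophagy receptor SQSTM1, at 0.50, TPP1, at 0.38, MAP1LC3B, at 0.36, VPS18, at 0.31, PSAP, at 0.25, and CD63, at 0.22. GABARAPL1, a protein of autophagosome membranes, was the other gene that fell, at -0.58. LAMP1, LAMP2 and cathepsin D (CTSD), abundant lysosome proteins, did not pass, at 0.04, -0.16 and 0.20. The count that rose was 6 without shPGC-1alpha replicate 1 and without shGFP replicate 2, and 7 or 8 without each of the other arrays. It was also 6 when p-values were adjusted over all probe sets.

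Of 11 measured proteins that carry nutrient signals to MiT/TFE factors, 4 rose (36.4%) and 0 fell. Over all genes 9.58% rose and 12.2% fell. The median log2 difference of the list was 0.16. The list was drawn around the lysosome surface, where folliculin and the Rag GTPases present MiT/TFE factors to the kinase mTORC1. The 4 that rose were the folliculin partners FNIP1 and FNIP2 and the GTPases RRAGC and RRAGD. FNIP2 had log2 values of 8.65, 8.55 and 8.68 in shPGC-1alpha cells, against 7.66, 7.62 and 7.55 in shGFP cells, a log2 difference of 1.02 (SE 0.07, adjusted p 0.000159). RRAGD, itself known as a MiT/TFE target, had 8.53, 8.50 and 8.64 in shPGC-1alpha cells, against 7.81, 7.96 and 7.89 in shGFP cells, a log2 difference of 0.67 (SE 0.07, adjusted p 0.000869).

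FNIP1 had log2 values of 9.56, 9.53 and 9.45 in shPGC-1alpha cells, against 8.99, 8.73 and 8.65 in shGFP cells, a log2 difference of 0.72 (SE 0.10, adjusted p 0.00226). RRAGC rose by 0.45 (SE 0.06, adjusted p 0.0026). The count that rose was 4 with any 1 array left out. The other 7 did not pass. They were the GTPases RRAGA, at -0.00445, and RRAGB, at 0.31, the Ragulator subunits LAMTOR4, at -0.05, and LAMTOR5, at 0.09, and folliculin (FLCN), at 0.12, MTOR, at 0.16, and GSK3B, at 0.10. At an unadjusted p of 0.05 in limma 5 genes rose and 0 fell.

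**Figure D3:**
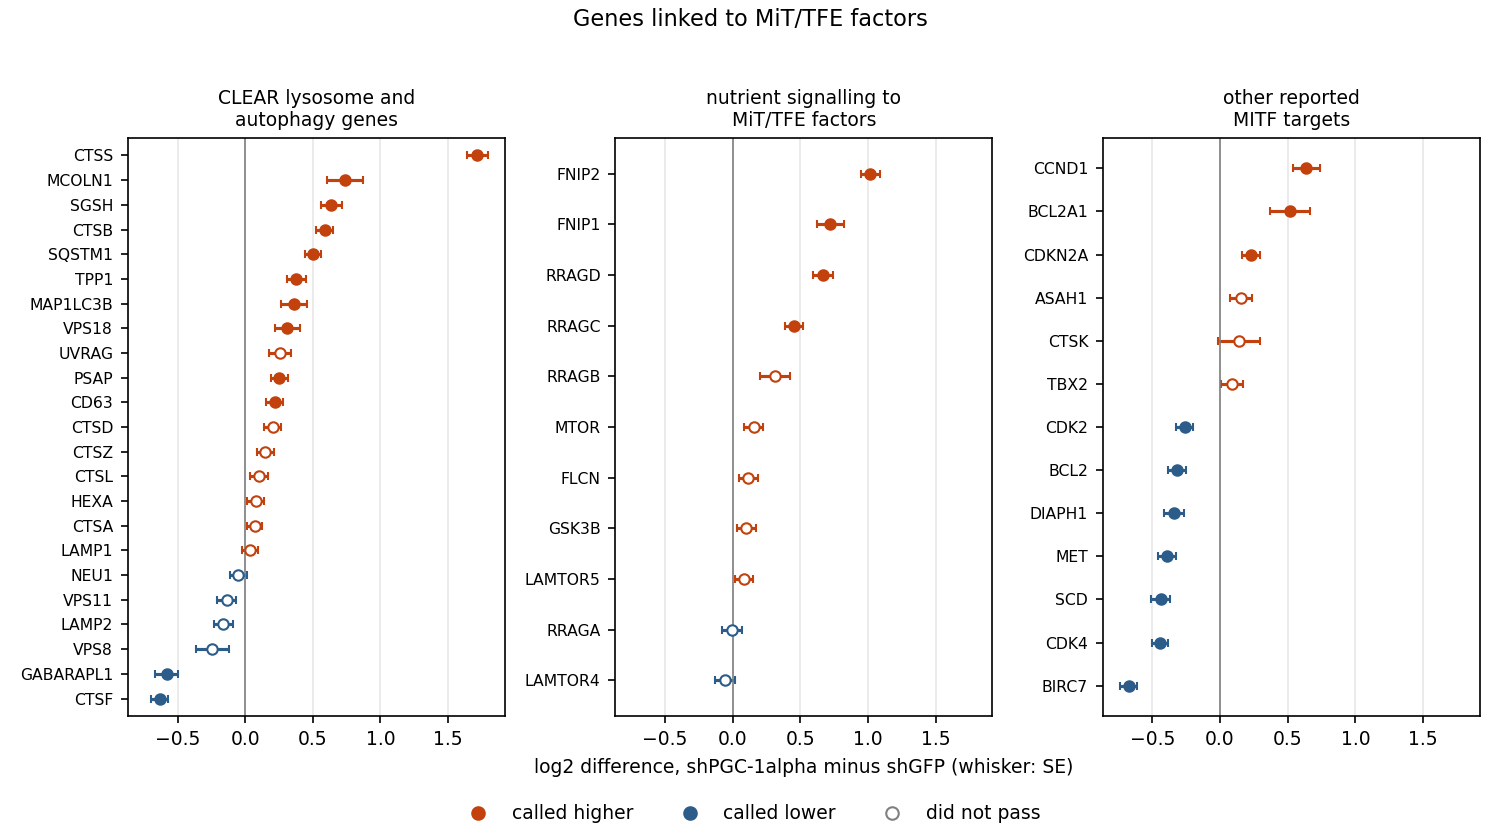
Log2 difference (shPGC-1alpha minus shGFP) with its SE for every measured gene of the CLEAR lysosome and autophagy list, the nutrient signalling list and the list of other reported MITF targets. Filled points passed an adjusted p of 0.05. Called genes of the first 2 panels lie mostly right of 0, and called genes of the third mostly left of it.

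Of 12 measured regulators of MITF transcription, known mostly from pigment cells, 1 rose and 1 fell (8.33% each way). Over all genes 9.58% rose and 12.2% fell. The median log2 difference of the list was 0.08. The gene that rose was ZEB2, described above. KITLG, the ligand of the receptor KIT that signals to MITF in melanocytes, had log2 values of 7.45, 7.35 and 7.55 in shPGC-1alpha cells, against 8.54, 8.46 and 8.54 in shGFP cells, and fell by 1.06 (SE 0.07, adjusted p 0.000173). MC1R, which raises MITF through cyclic AMP in melanocytes, fell also without shPGC-1alpha replicate 2, when 2 genes were lower, and with the replicate block. SOX10, at -0.01, PAX3, at 0.18, and CREB1, at -0.16, which act on the pigment cell promoter, did not pass.

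MicroRNAs reported to target MITF or NFIB transcripts, or made from introns of MITF-regulated genes, are given by their mature sequences with the seed (bases 2 to 8) in capitals, and those that share a seed stand together. The first 3 share CAGUGCA and the next 2 share UCCCUUU.
hsa-miR-148a-3p: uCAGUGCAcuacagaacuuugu
hsa-miR-148b-3p: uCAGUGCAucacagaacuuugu
hsa-miR-152-3p: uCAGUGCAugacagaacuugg
hsa-miR-204-5p: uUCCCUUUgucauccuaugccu
hsa-miR-211-5p: uUCCCUUUgucauccuucgccu
hsa-miR-182-5p: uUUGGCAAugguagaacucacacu
hsa-miR-340-5p: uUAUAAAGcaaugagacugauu
hsa-miR-21-5p: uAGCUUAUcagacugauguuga
These genes were read through probe sets for their precursor transcripts, which do not measure the mature microRNA. Of 8 measured 0 passed in limma at an adjusted p of 0.05, and 0 did at an unadjusted p of 0.05, beside 6.34% of all 1072 microRNA genes called in either direction. MIR21, the gene of miR-21, which is reported to act on NFIB, had log2 values of 9.30, 9.18 and 9.30 in shPGC-1alpha cells, against 9.09, 9.06 and 9.21 in shGFP cells. The groups overlapped, with a log2 difference of 0.13 (SE 0.07, adjusted p 0.253). MIR340, reported to act on MITF, was dim, with means of 3.04 in shPGC-1alpha cells and 3.31 in shGFP cells (log2 difference -0.26, SE 0.16, adjusted p 0.316). The other 6 had log2 differences from -0.18 for MIR152 to 0.05 for MIR182, and MIR148A, MIR148B, MIR182 and MIR204 were below the guide to dim signal.

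NFI targets and endothelin genes are tied to NFIB through studies of mouse brain and skin, where NFI factors restrain Ezh2 and Edn2. Of 9 measured, 3 fell and 2 rose (33.3% and 22.2%), beside 12.2% and 9.58% over all genes. The median log2 difference of the list was -0.13. RUNX2, the bone transcription factor, had log2 values of 7.39, 7.29 and 7.21 in shPGC-1alpha cells, against 8.53, 8.22 and 8.35 in shGFP cells, and fell by 1.07 (SE 0.10, adjusted p 0.000424). EZH2, the methyltransferase of Polycomb repression, fell by 0.65 (SE 0.08, adjusted p 0.00126), to a mean of 8.79 in shPGC-1alpha cells, against 9.43 in shGFP cells. The pioneer factor FOXA1, an NFI partner in prostate cells, fell by 0.53.

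EDN1, the vasoconstrictor endothelin made by many epithelia, rose by 0.89 (SE 0.07, adjusted p 0.00029), with log2 values of 8.08, 8.03 and 7.89 in shPGC-1alpha cells, against 7.07, 7.11 and 7.15 in shGFP cells. EDN2, at -0.18, and EDN3, at -0.10, did not pass. SOX9, the other gene that rose, at 0.34, lost its call without shPGC-1alpha replicate 1 or 3 or shGFP replicate 1 or 2, when 1 gene rose, and when p-values were adjusted over all probe sets.

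Other transcription factors of the kidney were called at a share near that of all genes. Of 16 measured 2 rose and 2 fell, 12.5% each way, beside 9.58% higher and 12.2% lower over all genes. SALL1 and LHX1, which act in nephron development, fell by 0.56 (SE 0.06, adjusted p 0.00096) and 0.54 (SE 0.07, adjusted p 0.00239). PAX8, which marks the renal epithelial lineage, rose by 0.38 (SE 0.07, adjusted p 0.00645), and HOXD11 rose by 0.38. With p-values adjusted over all probe sets 1 gene rose.

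Of 14 measured factors of the MYC, MAX and USF kind, which bind E-box letters as other dimers, 5 rose (35.7%) and 3 fell (21.4%). Over all genes 9.58% rose and 12.2% fell. MXD1, which pairs with MAX in place of MYC, had log2 values of 8.11, 8.16 and 8.09 in shPGC-1alpha cells, against 7.39, 7.40 and 7.41 in shGFP cells, a log2 difference of 0.72 (SE 0.06, adjusted p 0.000292). MAX, the common partner, rose by 0.33 (SE 0.06, adjusted p 0.00948) and MLXIP, a glucose-responsive factor, fell by 0.40 (SE 0.08, adjusted p 0.00977). MYC did not pass, at -0.08. The count that rose was 3 when any array but shPGC-1alpha replicate 2 was left out and 3 with the replicate block, and the count that fell was 1 without shPGC-1alpha replicate 1 or 2 or shGFP replicate 2 or 3. With p-values adjusted over all probe sets 1 rose and 1 fell.

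**Figure D4:**
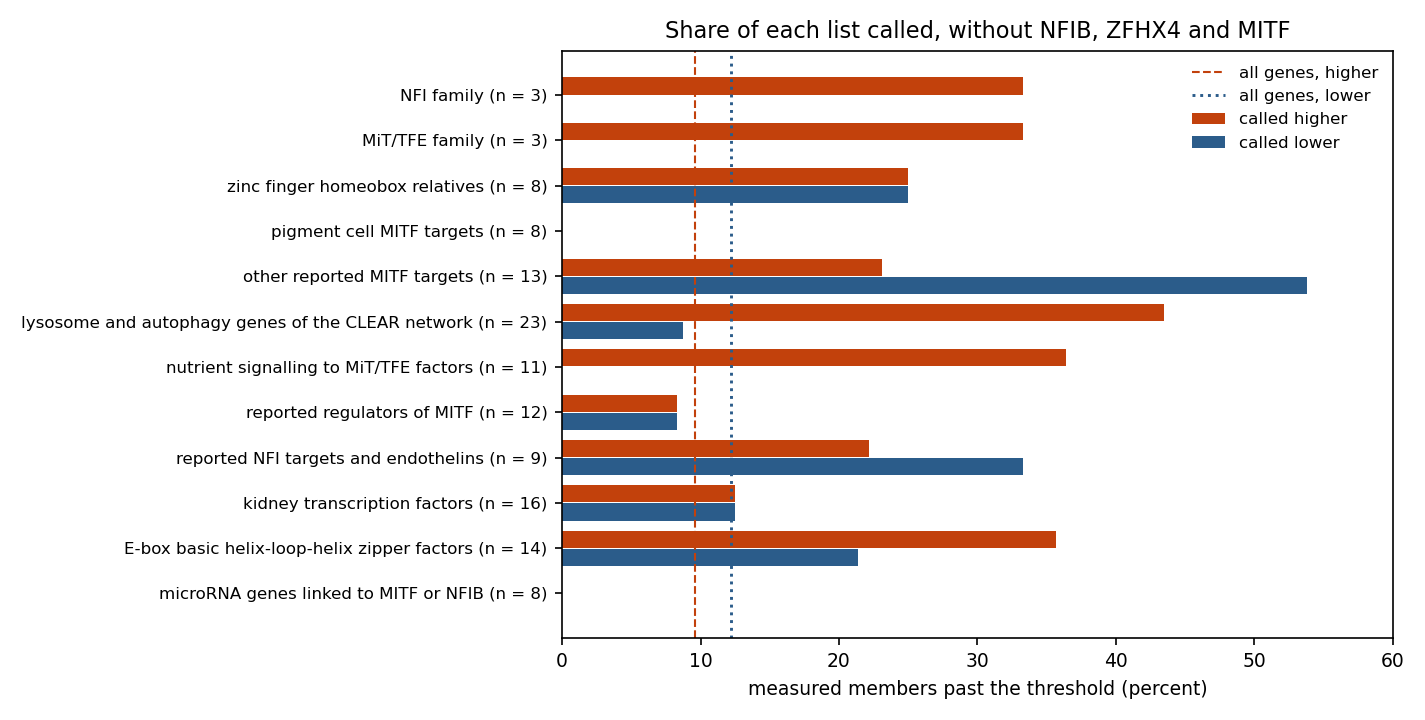
Share of the measured members of each list called higher or lower in shPGC-1alpha cells (percent), leaving out NFIB, ZFHX4 and MITF, with the share over all 14884 genes as vertical lines. The lines include microRNA genes and genes below the guide to dim signal. With genes below the guide left out, a larger share of genes is called in each direction. Of the 11913 protein-coding genes other than the 3 factors, 13.5% were lower and 11.1% higher. The largest shares are 53.8% lower among other reported MITF targets and 43.5% higher among the CLEAR genes, and the pigment cell and microRNA lists have 0 called genes.

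The nearest named protein-coding genes on each side of the 3 loci were read next. They are not always adjacent, since genes without a named probe set can lie between. There are 2 such protein-coding genes between NFIB and FREM1, 1 between ZFHX4 and CRISPLD1, and 1 between MITF and FOXP1. Whether the loci moved as blocks was not tested. Beside NFIB, MPDZ, a scaffold of tight junctions, fell by 0.69 (SE 0.07, adjusted p 0.000734), with means of 7.69 in shPGC-1alpha cells and 8.37 in shGFP cells. FREM1, a basement membrane protein on the other side of NFIB, had a dim signal, with means of 3.76 in shPGC-1alpha cells and 4.07 in shGFP cells, and fell by 0.31 (SE 0.08, adjusted p 0.0397), a call lost when any array but shPGC-1alpha replicate 2 was left out (adjusted p 0.0805 to 0.119). Beside ZFHX4, CRISPLD1 and the peroxisome biogenesis gene PEX2 fell by 0.44 (SE 0.10, adjusted p 0.018) and 0.29 (SE 0.07, adjusted p 0.0194).

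The call of CRISPLD1 was lost without shPGC-1alpha replicate 2 or 3 or shGFP replicate 2 or 3 (adjusted p 0.054 to 0.0652) and with the replicate block (adjusted p 0.0505). That of PEX2 was lost without shPGC-1alpha replicate 2 or 3 or shGFP replicate 2 (adjusted p 0.0525 to 0.0735). Beside MITF the called neighbour, the scaffold protein FRMD4B, went the opposite way. FRMD4B had log2 values of 6.51, 6.56 and 6.29 in shPGC-1alpha cells, against 5.58, 5.57 and 5.58 in shGFP cells. It rose by 0.87 (SE 0.08, adjusted p 0.000558). The forkhead factor FOXP1, on the other side, did not pass (log2 difference -0.10, SE 0.09).

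The genes with the profiles most like those of the 3 factors were found by the root mean square difference of log2 values over the 6 arrays, after each gene was set to 0 at its shGFP mean, among 11909 protein-coding genes. They are chosen for their likeness in this contrast and are not tested. Nearest to NFIB were the collagenase MMP13, at 0.117, the lipid transfer relative SEC14L6, at 0.158, and the secreted protein CRISPLD2, at 0.164. MMP13 had a mean of 3.86 in shPGC-1alpha cells, below the guide to dim signal, where NFIB had 5.83. The nearest to ZFHX4 were the death-associated kinase DAPK1, at 0.122, CRISPLD2, at 0.127, and SEC14L6, at 0.152, so NFIB and ZFHX4 had 2 of their 3 nearest genes in common. The measure includes the group difference, which was alike in NFIB and ZFHX4 and on which they were chosen. Nothing is therefore read from the shared genes or from the sizes of the distances.

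Nearest to MITF were POMK, a kinase that acts on the sugars of dystroglycan, at 0.057, the Crumbs polarity scaffold PATJ, at 0.0635, and the kinase MAP3K21, at 0.0712. They were chosen for likeness in every array, shGFP replicate 1 included, so nothing is read from a shared high there. Each of them had its highest shGFP value in replicate 1. It lay above the gene's shGFP mean by 0.05 for POMK, 0.17 for PATJ and 0.07 for MAP3K21, where MITF was 0.16 above its own. Their log2 differences were -1.20 (SE 0.07) for POMK, -1.24 (SE 0.09) for PATJ and -1.27 (SE 0.06) for MAP3K21.

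**Figure D5:**
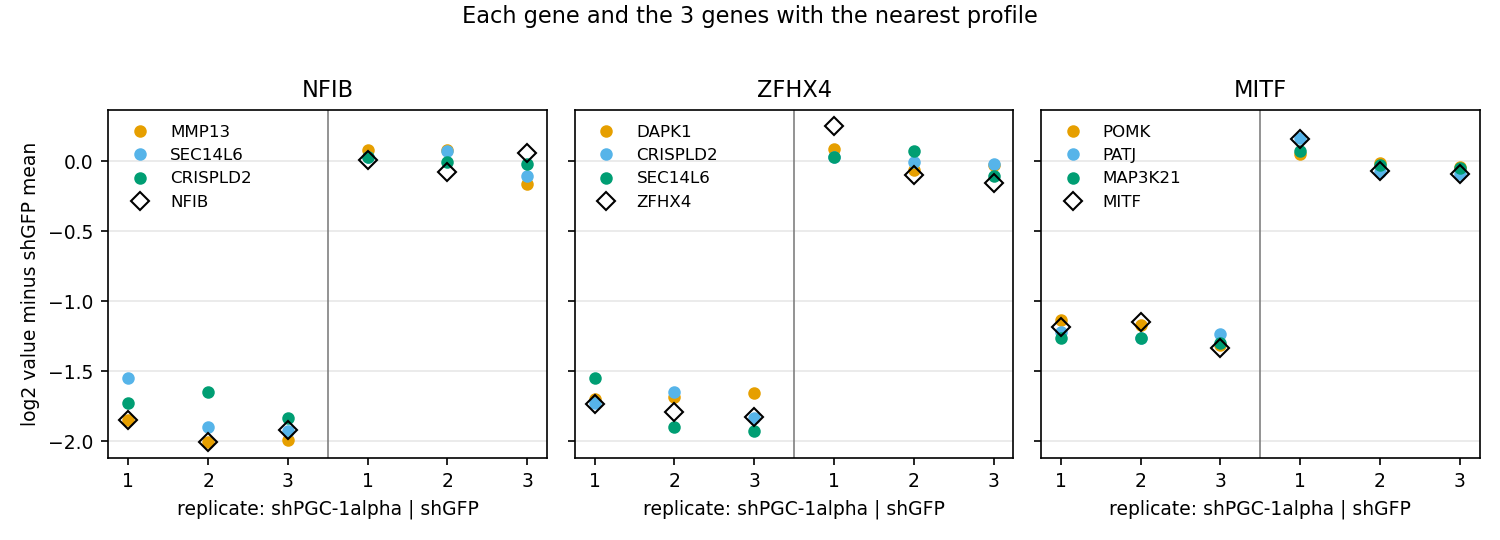
Log2 values relative to each gene's shGFP mean in the 6 arrays, for NFIB, ZFHX4 and MITF (open diamonds) and the 3 genes nearest to each (filled circles). The shPGC-1alpha arrays are on the left of each panel and the shGFP arrays on the right. The distances are 0.057 to 0.0712 for the genes nearest to MITF and 0.117 to 0.164 for those nearest to NFIB. The genes were chosen for their likeness in these arrays, so nothing is read from the sizes of the distances.

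Some epithelial markers also fell in this contrast. Of 6, 5 were measured, 3 fell and 0 rose: the keratins KRT19 and KRT18 by 1.42 (SE 0.10) and 0.31 (SE 0.06) and the adhesion molecule EPCAM by 0.73 (SE 0.07). Their summed log2 value ran from 36.2 to 37.1 in shPGC-1alpha cells and from 39.2 to 39.8 in shGFP cells, and all 5 were above the guide to dim signal. Of 2 measured fibroblast markers, DCN rose by 0.83 (SE 0.08), to a mean of 4.63 in shPGC-1alpha cells, against 3.80 in shGFP cells, and THY1 did not pass. DCN was dim, below the guide in its mean over all 6 arrays. Of the 5 proximal tubule markers 1 fell, the peptidase MME, by 0.61 (SE 0.07), and of 2 leukocyte markers 1 fell, the receptor CSF1R, by 0.48 (SE 0.07). Of 3 endothelial markers 0 passed in limma, also at an unadjusted p of 0.05. Over all genes 12.2% were called lower and 9.58% higher, and lists of 2 to 5 measured markers are too short to set against these shares. The part of these markers in the lower values of NFIB, ZFHX4 and MITF was not tested.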

How the data were processed

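Biotin-labelled RNA of 6 HK2 samples was measured on Affymetrix arrays. The authors deposited log2 values for 53617 probe sets, made with RMA (background correction, quantile normalisation and summarisation of probes) in Affymetrix Expression Console, per the submitters' processing notes. Tool versions were not given in the sources that were used. RMA evens out array distributions and gives no detection calls, so the number of arrays limits the precision.

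A platform annotation named 16098 probe sets, all of whose identifiers matched the RefSeq table of GRCh38.p14, and 37519 are unnamed here. The probe set with the highest mean stood for each of 14884 genes. limma 3.58.1 (lmFit, then eBayes with defaults, no dim filter, no block; R 4.3.3) compared the groups, two-sided, with Benjamini-Hochberg adjustment over all genes and a threshold of 0.05. The smallest p that exact permutation of 3 against 3 arrays allows is 0.1. The procedure was tested on simulated data. Promoter windows and microRNA sequences came from RefSeq (GRCh38.p14).

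NFIB, ZFHX4, MITF and the 12 gene lists (187 genes, 129 measured) were chosen with earlier results of these data known, and the 3 factors were left out of every count. Text names every measured relative of the 3 factors, in each other list up to 3 genes past the threshold with the smallest p, or 2 where 0 passed, the 3 nearest profiles and the nearest named protein-coding neighbours, without Y-linked genes. Other genes named were chosen after their values were seen. Alternatives left out each array, used a replicate block, another probe set per gene, a dim filter, other scalings, a trended and robust variance, and adjustment over all probe sets.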

Additional observations from a re-analysis of the deposited data

How the results depend on the processing

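The log2 differences of NFIB, ZFHX4 and MITF moved by less than the spread between replicates with any array left out and after rescaling. Their ranges over the arrays left out were -1.96 to -1.89, -1.86 to -1.66 and -1.27 to -1.14. The other alternatives could not move them. Each gene had 1 named probe set. In this balanced design the block, dim filter, variance fit and adjustment leave the log2 difference unchanged. Over all genes 1426 rose and 1817 fell; with 1 array left out 1011 to 1170 rose and 1301 to 1502 fell, and adjustment over all probe sets gave 767 higher and 970 lower. Centring each array on its median gave 1867 higher and 1440 lower, so the balance between directions depends on the scaling. Adjusted over all probe sets, the counts that rose were 1 zinc finger homeobox relative, 1 other MITF target, 6 CLEAR genes, 1 NFI target, 1 kidney factor and 1 E-box factor, and those that fell were 1 zinc finger homeobox relative, 4 other MITF targets and 1 E-box factor. The zinc finger homeobox relatives that fell were also 1 with the replicate block, with the lowest-mean probe set, after quantile normalisation again and after centring. Both of these scalings gave 1 higher pigment gene, and the trended, robust variance gave 1 lower. With 1 array left out the counts that rose ran from 1 to 2 for zinc finger homeobox relatives, other MITF targets and NFI targets, 6 to 8 for CLEAR genes and 3 to 5 for E-box factors, and the counts that fell were 1 in every case for zinc finger homeobox relatives, 0 to 1 for pigment genes, 1 to 2 for regulators of MITF and 1 to 2 for E-box factors. The cause of these shifts was not tested. The deviations of same-numbered arrays from their group means correlated weakly, at 0.117, 0.0874 and 0.023 for numbers 1, 2 and 3. Between different numbers the correlations ran from -0.123 to 0.0573. The highest of these joined shGFP replicate 3 to shPGC-1alpha replicate 2, above the value for its own number. Whether the numbers mark pairs cannot be told from these values. With the replicate block 1 other MITF target and 3 E-box factors rose, and 1 pigment gene and 2 regulators of MITF fell. Among the 43 other genes with alternatives, 546 of 598 values kept direction and side of the threshold, 39 lost the call and 6 gained it. The other 7 changed sign, all in genes that did not pass before or after: with 1 array left out the log2 difference ran from -0.0674 to 0.204 for NFIA, -0.0848 to 0.213 for TFEB and -0.133 to 0.022 for ZFHX3, and it was 0.00209 for ZFHX3 after centring and -0.067 for ZHX3 with the lowest-mean probe set.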
